A study of Homo sapiens and Mus musculus with 24 samples.

Results

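Small nucleolar RNA (snoRNA) genes and their Cajal body relatives were followed in the aqueous-phase RNA of UV-irradiated and nonirradiated cells. A gene was included when its symbol began with SNORD (C/D snoRNAs), SNORA (H/ACA snoRNAs) or SCARNA (small Cajal body RNAs) and its mean level in the nonirradiated samples of the cell type described was at least 0.5 CPM (counts of the gene scaled to the library total). By this rule 174 genes were included in HepG2 and 202 in HEK293, of 552 such genes annotated in human, and 106 in Neuro2a and 59 in HippCulture, of 150 annotated in mouse. In all, 332 of the 112096 genes in the human and mouse tables were included in at least 1 cell type. The HepG2 set held 97 C/D, 66 H/ACA and 11 Cajal body RNAs, and the HEK293 set 99, 90 and 13. In the same order there were 64, 37 and 5 in Neuro2a and 31, 23 and 5 in HippCulture.

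C/D snoRNAs direct ribose methylation of ribosomal RNA and H/ACA snoRNAs direct its pseudouridylation, each by base pairing with the target while bound by a fixed set of core proteins. Small Cajal body RNAs guide the same modifications on spliceosomal snRNAs, and several of them join a C/D and an H/ACA part in 1 molecule. A few snoRNAs, among them SNORD3A (U3), SNORD118 (U8), SNORD13 (U13), SNORD22 (U22) and SNORA73A and SNORA73B (U17), act in the processing of the ribosomal RNA precursor. Most vertebrate snoRNAs are cut out of an intron of a host gene after splicing. Reads over such a gene can come from the cut-out snoRNA or from host RNA not yet spliced. The counts per gene do not tell these apart, and the part of each was not tested.

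In UPA-seq, UV light joins RNA covalently to proteins that touch it, and phenol extraction then carries the joined RNA away from the aqueous phase, which was sequenced. The groups were UV-irradiated and nonirradiated cultures of HepG2 (a human hepatocellular carcinoma line), HEK293 (a human embryonic kidney line), Neuro2a (a mouse neuroblastoma line) and HippCulture (a primary culture of hippocampal neurons from E16.5 mouse embryos), each with 3 samples, 24 in all. No group carried a genetic change or a drug in the labels. By the methods of the study, the hippocampal cultures of both groups had been treated with AraC, which kills dividing cells, to remove glia. The study calls its replicates biological and the labels do not say whether the samples of a group were separate cultures, so the p-values measure the spread between these samples. HepG2 expressed 5 of 5 hepatocyte markers (at least 0.5 CPM) and HEK293 0 of 5. Of the 5 neuroblastoma markers 4 passed in Neuro2a, and of the 5 neuron markers 5 passed in HippCulture, as did 3 of 3 astrocyte markers. The summed neuron markers of HippCulture ranged over 1942 to 2273 CPM without and 795 to 1066 CPM with irradiation, and the astrocyte markers over 157 to 180.0 and 159 to 198 CPM. In Neuro2a the summed neuron markers, of which 1 of 5 reached 0.5 CPM, ranged over 78.7 to 91.2 CPM without and 10.7 to 11.7 CPM with irradiation. Their part in the values of both mouse cell types below was not tested. Loss of joined RNA from the aqueous phase, fewer cells of a type and less RNA per cell cannot be told apart in these bulk samples. The same holds for covalent bonds that hinder reverse transcription, which the paper proposes. Total counts per sample were 36573473 to 53511592 in nonirradiated and 41712285 to 52201110 in UV-irradiated HepG2, and 6910907 to 11188033 in the other 18 samples, so 1 CPM stood for at least 36.6 reads in HepG2 and at least 6.91 elsewhere.

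The sequences of 8 genes show the motifs that define the classes and the genes that moved furthest from, or most differently to, their hosts. They were read on the strand of each gene from hg38 (human) and mm10 (mouse), with capitals marking a C box (ATGATGA or GTGATGA, searched in the first 25 bases), a D box (CTGA, last 15 bases) or an ACA box (last 8 bases). SNORD17 (chr20:17962710-17962946, minus strand) lies in an intron of SNX5 and SNORD19 (chr3:52689248-52689315, plus strand) in GNL3. SNORD11 (chr2:202293051-202293134, plus strand) lies in NOP58, SNORA73B (chr1:28508559-28508762, plus strand) in SNHG3 and SNORA23 (chr11:9428773-9428954, plus strand) in IPO7. SCARNA6 (chr2:233288676-233288940, plus strand), a Cajal body RNA with a C/D and an H/ACA part, lies in ATG16L1. Mouse Snord17 (chr2:144265979-144266216, minus strand) lies in Snx5 and mouse Snora23 (chr7:110046364-110046547, plus strand) in Ipo7, so both keep the host of the human gene. None of the 8 shares a base with an annotated exon of its host. Mouse Snord17 was 84.9% identical to SNORD17, and mouse Snora23 85.3% to SNORA23.
SNORD17: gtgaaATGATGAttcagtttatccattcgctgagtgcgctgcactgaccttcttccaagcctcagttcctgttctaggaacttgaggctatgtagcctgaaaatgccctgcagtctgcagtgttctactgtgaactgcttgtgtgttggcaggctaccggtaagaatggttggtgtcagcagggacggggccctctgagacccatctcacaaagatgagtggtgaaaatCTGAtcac
SNORD19: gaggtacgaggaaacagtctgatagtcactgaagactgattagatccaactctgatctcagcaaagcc
SNORD11: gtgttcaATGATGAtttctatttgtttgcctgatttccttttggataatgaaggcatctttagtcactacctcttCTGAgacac
SNORA73B: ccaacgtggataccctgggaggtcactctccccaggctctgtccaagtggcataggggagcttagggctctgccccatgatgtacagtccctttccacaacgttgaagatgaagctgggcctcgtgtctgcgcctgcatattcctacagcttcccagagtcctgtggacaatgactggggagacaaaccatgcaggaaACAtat
SNORA23: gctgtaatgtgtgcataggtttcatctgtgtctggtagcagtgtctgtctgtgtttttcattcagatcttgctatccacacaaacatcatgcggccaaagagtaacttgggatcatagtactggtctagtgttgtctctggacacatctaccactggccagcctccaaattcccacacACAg
SCARNA6: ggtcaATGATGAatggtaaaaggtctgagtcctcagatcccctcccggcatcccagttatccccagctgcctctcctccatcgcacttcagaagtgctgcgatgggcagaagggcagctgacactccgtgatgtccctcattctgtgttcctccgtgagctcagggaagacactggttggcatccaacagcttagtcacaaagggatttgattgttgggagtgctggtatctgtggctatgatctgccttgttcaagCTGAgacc
Snord17: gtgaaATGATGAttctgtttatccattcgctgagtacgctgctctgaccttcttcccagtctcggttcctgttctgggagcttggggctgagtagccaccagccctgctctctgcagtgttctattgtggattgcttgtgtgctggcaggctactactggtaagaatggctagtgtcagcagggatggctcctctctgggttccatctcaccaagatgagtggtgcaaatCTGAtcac
Snora23: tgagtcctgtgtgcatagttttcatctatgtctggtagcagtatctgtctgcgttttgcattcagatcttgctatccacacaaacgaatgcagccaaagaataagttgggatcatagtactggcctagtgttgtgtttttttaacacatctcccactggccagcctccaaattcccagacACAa

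The C/D and H/ACA genes shown but for SNORD19, in which neither box was found in these windows, hold the motifs of their class, and SCARNA6 holds a C and a D box. Of the 314 annotated human C/D genes, 59.9% held both a C and a D box, against 0.637% of windows of the same length placed 200 bases upstream, and 66.7% against 0% of the 99 mouse genes. An ACA box was found in 82.2% of the 213 human H/ACA genes against 12.7% of the upstream windows, and in 95.2% against 14.3% for the 42 mouse genes. The short Cajal body motif TGAG, searched anywhere in the gene, did not set the Cajal body RNAs apart, with 72.0% of 25 human genes against 84.0% of upstream windows and 88.9% against 66.7% for 9 mouse genes. These searches read only the strand of the gene, and no match says only that the letters were not found in the window.

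A larger part of the aqueous-phase reads came from snoRNA genes with UV irradiation than without, and the 3 classes differed in how many of their members moved. In HepG2 the C/D members summed to 289.5, 271 and 266 normalized CPM in the nonirradiated and 1466, 1436 and 1388 in the UV-irradiated samples, and the Cajal body RNAs to 299, 436 and 411 normalized CPM in the nonirradiated and 1583, 1568 and 1531 in the UV-irradiated samples. In both classes every irradiated sample lay above every nonirradiated one, as it did for each class in each cell type with TMM scaling and in plain CPM (exact permutation test, two-sided, p = 0.1, the smallest that 3 against 3 samples allow). In plain CPM, with no correction for composition, the HepG2 C/D sum was still 433 ± 12.7 (SD, n = 3) without and 909.8 ± 1.82 with irradiation. Sums are carried by a few genes, since SNORD17 made up 64.8% of the HepG2 and SNORD3A 86.3% of the HEK293 C/D reads without irradiation. Normalized CPM are scaled by TMM (the trimmed mean of M-values), which sets the typical gene to about no change. Counted gene by gene on that scale, with edgeR's quasi-likelihood test and an adjusted p under 0.05, the picture was more mixed. Among the C/D snoRNAs 37 of 97 increased and 21 decreased in HepG2, where 38.1% of all genes tested increased and 40.7% decreased. In HEK293 29 of 99 increased and 11 decreased (36 and 17 with the replicate number as a block), where 24.2% of all genes tested increased and 26.4% decreased. In Neuro2a 23 of 64 increased and 3 decreased, where 28.9% of all genes tested increased and 33.0% decreased. In HippCulture 5 of 31 increased and 4 decreased, where 26.1% of all genes tested increased and 25.9% decreased. The share of C/D members that increased was therefore 38.1%, 29.3%, 35.9% and 16.1% in HepG2, HEK293, Neuro2a and HippCulture, near that of all genes in HepG2 and below it in HippCulture.

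Relative to the typical gene, H/ACA snoRNAs increased more often and seldom decreased. With library totals alone more of them decreased than increased in HepG2, where most of all genes tested then decreased. In this class 36 of 66 increased and 6 decreased in HepG2, 46 of 90 increased and 5 decreased in HEK293, 25 of 37 increased and 0 decreased in Neuro2a and 11 of 23 increased and 0 decreased in HippCulture. Of the Cajal body RNAs 10 of 11 increased and 0 decreased in HepG2, 10 of 13 increased and 1 decreased in HEK293, 4 of 5 increased and 1 decreased in Neuro2a and 5 of 5 increased and 0 decreased in HippCulture. The median log2 fold change over C/D members was 0.11, 0.10, 0.61 and -0.20 in HepG2, HEK293, Neuro2a and HippCulture. Over H/ACA members it was 0.98, 1.05, 1.45 and 0.69, over Cajal body RNAs 2.28, 2.00, 2.54 and 1.60, and over all genes tested -0.08, -0.08, -0.14 and -0.04. In each cell type the medians thus stood in the order C/D, H/ACA, Cajal body RNAs, from low to high. Scaling by library totals alone moved the median of all genes to -1.38, -0.84, -1.32 and -0.59, and the fold changes here are to be read relative to the typical gene. Of all genes tested, 1734 of 20117 then increased and 15830 decreased in HepG2, and 1557 of 20472 increased and 11168 decreased in HEK293. In Neuro2a 1058 of 17425 increased and 12852 decreased, and in HippCulture 1320 of 18488 increased and 9149 decreased. With that scaling the C/D medians were -1.19, -0.67, -0.56 and -0.71, the H/ACA medians -0.32, 0.29, 0.26 and 0.15, and the Cajal body medians 0.98, 1.23, 1.34 and 1.03, so the sign of the C/D median turned in HepG2, HEK293 and Neuro2a, that of the H/ACA median turned in HepG2, and the order of the classes stayed. The C/D split became 14 increased and 64 decreased in HepG2, 13 increased and 33 decreased in HEK293, 10 increased and 24 decreased in Neuro2a and 3 increased and 9 decreased in HippCulture, and the H/ACA split 21 increased and 29 decreased in HepG2, 33 increased and 13 decreased in HEK293, 12 increased and 5 decreased in Neuro2a and 6 increased and 0 decreased in HippCulture. The Cajal body split became 8 increased and 1 decreased in HepG2, 9 increased and 1 decreased in HEK293, 3 increased and 2 decreased in Neuro2a and 3 increased and 0 decreased in HippCulture. Leaving out 1 library moved some of the smaller counts by more than 1.5 times. The C/D count that decreased in HEK293 became 6 without HEK293 nonirradiated replicate 1, 6 without HEK293 nonirradiated replicate 3, 1 without HEK293 UV-irradiated replicate 2 and 3 without HEK293 UV-irradiated replicate 3, the H/ACA count that decreased there 3 without HEK293 nonirradiated replicate 2, 3 without HEK293 UV-irradiated replicate 2 and 3 without HEK293 UV-irradiated replicate 3, and in Neuro2a the C/D count that decreased became 1 without Neuro2a nonirradiated replicate 2 and the Cajal body count that decreased 0 without Neuro2a UV-irradiated replicate 2. In HippCulture the C/D count that increased became 8 without HippCulture nonirradiated replicate 1 and the C/D count that decreased 1 without HippCulture nonirradiated replicate 3 and 2 without HippCulture UV-irradiated replicate 1.

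**Figure D1:**
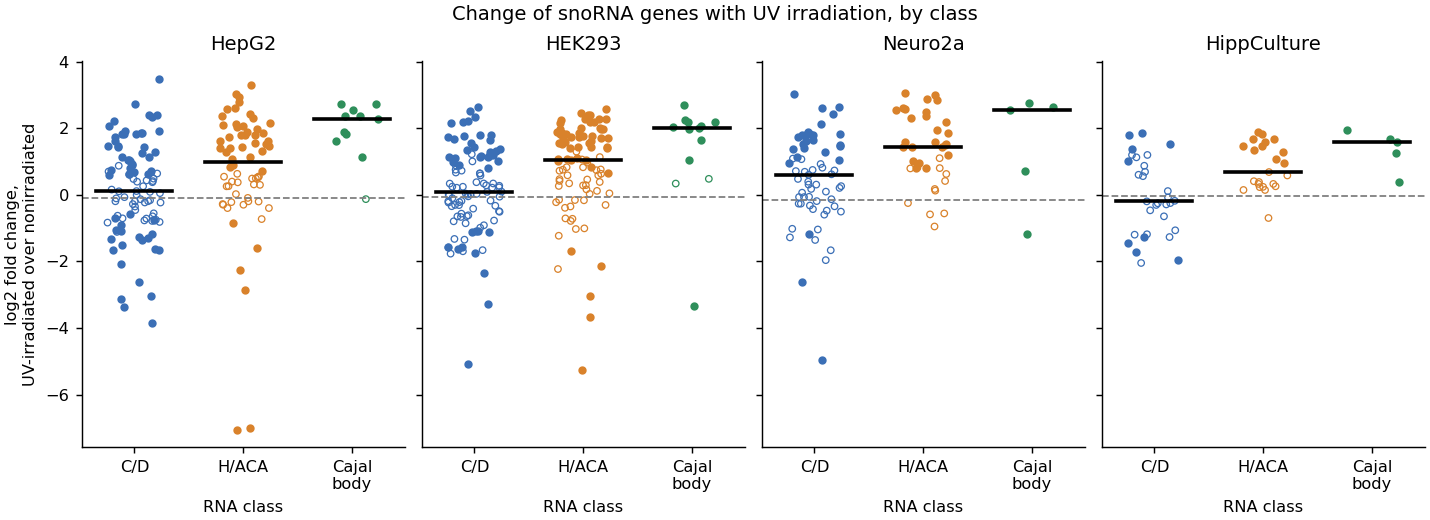
Log2 fold change (UV-irradiated over nonirradiated, TMM scaling) of every included snoRNA gene by class and cell type. Filled points had an adjusted p under 0.05 and open points did not, black bars are class medians and the grey dashed line is the median of all genes tested. The medians rose from C/D (HepG2 0.11) over H/ACA (0.98) to Cajal body RNAs (2.28). With library totals alone the HepG2 C/D and H/ACA medians were negative, as was that of all genes tested (-1.38).

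Among the C/D snoRNAs, 3 of 3 HepG2 and 5 of 6 HEK293 members of 200 bases or more rose, and 26 of 82 and 15 of 81 of those under 100 bases. The members of 200 bases or more include near-identical U3 copies counted separately, so they are not independent. SNORD17, the most abundant C/D member of HepG2, measured 204, 169 and 163 normalized CPM in the nonirradiated and 1220.3, 1212 and 1157 in the UV-irradiated samples (log2 fold change 2.74 ± 0.11 (SE), adjusted p = 2.55e-07), with no overlap between the groups. It also rose in HEK293 (2.33), and mouse Snord17 rose in Neuro2a (3.03) and HippCulture (1.85). SNORD17 is long for its class, with 237 bases against a median of 84 for the HepG2 C/D members, as its sequence above shows. SNORD3A, the U3 snoRNA, measured 4.38, 4.89 and 4.09 normalized CPM in the nonirradiated and 57.6, 44.6 and 48.4 in the UV-irradiated samples (log2 fold change 3.49 ± 0.12 (SE), adjusted p = 2.55e-07), the most positive change of any HepG2 member. In HEK293, where it was the most abundant member, it measured 2776, 2020.4 and 1827 without and 12095, 9720.0 and 9159 with irradiation (normalized CPM, log2 fold change 2.23). U3 is copied several times in the genome. SNORD3B-1, SNORD3B-2, SNORD3C and SNORD3D match stretches of SNORD3A at 98.9%, 98.1%, 99.8% and 98.6% identity, so the count of each copy is uncertain. In HEK293 SNORD3B-1 was the most positive C/D member (2.63). SNORD118 (U8) rose in HepG2 (1.82) and HEK293 (1.18), and mouse Snord118 rose in Neuro2a (2.63). SNORD13 (U13) rose in HepG2 (1.86) and HEK293 (1.18), and so did mouse Snord13 in Neuro2a (1.79). The call of SNORD118 in HEK293 was lost without nonirradiated replicate 2 (adjusted p = 0.0661) and nonirradiated replicate 3 (adjusted p = 0.0643). SNORD10, which guides a modification of U6 snRNA, rose in both human lines (1.93 and 2.20). The other most abundant C/D members also rose, with log2 fold changes of 1.92 for SNORD86 and 1.75 for SNORD49B in HepG2, 1.72 for SNORD58B in HEK293, and 1.46 for Snord47 and 1.29 for Snord96a in Neuro2a. With library totals alone these calls were lost for SNORD49B in HepG2 (0.44, adjusted p = 0.0635), SNORD13 (0.41, adjusted p = 0.145) and SNORD118 (0.40, adjusted p = 0.276) in HEK293, and Snord47 (0.27, adjusted p = 0.0766) and Snord96a (0.10, adjusted p = 0.583) in Neuro2a. In HippCulture the most abundant C/D members after Snord17 were Snord64, which fell by 1.44 on the log2 scale, and Snord78, at 0.56 (adjusted p = 0.086).

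U22, encoded within SNHG1, was not called increased in the human lines, and it carries 2 entries in the human annotation. The entry ENSG00000277194.1 stood at 0.05 in HepG2 (adjusted p = 0.84) and -0.18 in HEK293 (adjusted p = 0.535). The entry ENSG00000278527.1 measured 1.31, 1.83 and 1.26 without and 0.835, 0.869 and 1.02 with irradiation in HepG2 (normalized CPM, log2 fold change -0.70 ± 0.23 (SE), adjusted p = 0.0213) and fell by 1.57 on the log2 scale in HEK293 (adjusted p = 0.00442). Mouse Snord22 went the other way and rose, by 2.44 in Neuro2a and 1.54 in HippCulture. The call of the second entry in HepG2 was lost without nonirradiated replicate 2 (adjusted p = 0.085), UV-irradiated replicate 1 (adjusted p = 0.0696) and UV-irradiated replicate 2 (adjusted p = 0.0603).

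The C/D members that decreased were mostly short, as most of the class is. Of the 21 that decreased in HepG2, 20 were under 100 bases, as were 82 of all 97 C/D members. By level without irradiation, 16 of the 21 lay at 0.5 to 2 CPM, as did 75 of the 97, while in HEK293 7 of the 11 that decreased lay at 2 to 10 CPM. Their reads with irradiation were few, since 15 of the 21 in HepG2, all 11 in HEK293 and all 3 in Neuro2a had fewer than 10 reads in at least 1 sample, a measure that a decrease itself lowers. SNORD19, a 68-base snoRNA, measured 0.532, 0.505 and 0.395 normalized CPM in the nonirradiated and 0.0619, 0 and 0.0987 in the UV-irradiated samples (log2 fold change -3.04 ± 0.60 (SE), adjusted p = 0.00139). SNORD11, in NOP58, measured 0.461, 0.34 and 0.425 without and 0.0928, 0 and 0.0329 with irradiation in HepG2 (normalized CPM, log2 fold change -3.12 ± 0.65 (SE), adjusted p = 0.00184). Both lay wholly below their nonirradiated range with irradiation. In HEK293 SNORD11 had 15 counts without and 0 with irradiation, at least 3.25-fold lower (3 counts over the group). SNORD72 in HEK293, hosted by RPL37, stood at -2.34 (adjusted p = 0.0325). In Neuro2a Snord64 had 16 counts without and 0 with irradiation, at least 2.13-fold lower, and Snord7 had 18 counts over the nonirradiated and 1 over the UV-irradiated samples, a normalized ratio of 0.139 (95% counting interval 0.00333 to 0.879), which lost its call with the replicate block (adjusted p = 0.0716). In HippCulture Snord88c had 19 counts over the nonirradiated and 3 over the UV-irradiated samples, a ratio of 0.24 (95% counting interval 0.0456 to 0.817), and Snord107 fell by 1.72 (adjusted p = 0.0103). These intervals and limits cover counting error only. Calls near the threshold rested on single libraries: that of SNORD72 in HEK293 was lost without nonirradiated replicate 1 (adjusted p = 0.0568), nonirradiated replicate 3 (adjusted p = 0.103), UV-irradiated replicate 1 (adjusted p = 0.0587) and UV-irradiated replicate 2 (adjusted p = 0.0996), that of SNORD11 in HEK293 without nonirradiated replicate 3 (adjusted p = 0.0539), UV-irradiated replicate 2 (adjusted p = 0.0551) and UV-irradiated replicate 3 (adjusted p = 0.055), that of Snord7 without nonirradiated replicate 1 (adjusted p = 0.0508), nonirradiated replicate 2 (adjusted p = 0.113), UV-irradiated replicate 2 (adjusted p = 0.117) and UV-irradiated replicate 3 (adjusted p = 0.119), that of Snord88c without nonirradiated replicate 2 (adjusted p = 0.102), nonirradiated replicate 3 (adjusted p = 0.0679), UV-irradiated replicate 1 (adjusted p = 0.149) and UV-irradiated replicate 2 (adjusted p = 0.056) and that of Snord107 without nonirradiated replicate 3 (adjusted p = 0.0792).

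H/ACA snoRNAs were led by the U17 pair, SNORA73A and SNORA73B, which lie in SNHG3. They are 93.2% identical, so the count of each can be uncertain. SNORA73A measured 35.5, 32.2 and 28 normalized CPM in the nonirradiated and 176, 161 and 175 in the UV-irradiated samples (log2 fold change 2.42 ± 0.10 (SE), adjusted p = 2.63e-07) and SNORA73B 20.1, 17.4 and 15.8 without and 75.9, 68.8 and 72.6 with irradiation (2.03). Both rose in all 4 cell types, with 1.98 and 1.86 in HEK293. For the mouse pair the values were 2.62 and 2.50 in Neuro2a against 1.69 and 1.57 in HippCulture. SNORA74A (U19), in MATR3, rose by 2.78 in HepG2 and 2.41 in HEK293, and mouse Snora74a by 2.87 in Neuro2a and 1.67 in HippCulture. Its neighbour SNORA74D, also among the most abundant H/ACA members of HepG2, rose by 1.55, and SNORA12, among those of HEK293, by 2.17. SNORA57 was the most positive H/ACA member in HepG2 with 4.22, 2.92 and 2.87 without and 36.5, 30.6 and 31.9 with irradiation (normalized CPM, log2 fold change 3.32 ± 0.16 (SE), adjusted p = 3.34e-07). SNORA23 measured 0.603, 0.751 and 0.486 without and 3.28, 3.55 and 2.43 with irradiation in HepG2 (normalized CPM, log2 fold change 2.31 ± 0.23 (SE), adjusted p = 1.96e-05), and mouse Snora23 was the most positive Neuro2a member (3.07). In HippCulture Snora78 rose most among the H/ACA members, by 1.88, and Snora23 by 1.82. The H/ACA members that decreased were few, and 5 of the 6 in HepG2 and 5 of the 5 in HEK293 had fewer than 10 reads in at least 1 sample. SNORA16B and SNORA70G in HepG2 had 67 and 66 counts without and 0 with irradiation, at least 9.61- and 9.46-fold lower. In HEK293 the SNORA70 entry ENSG00000202379.1 had 17 counts without and 0 with irradiation, at least 3.69-fold lower, and the other 4 that decreased were 2 SNORA75 copies, SNORA29 and SNORA63B. SNORA70 and SNORA75 belong to families with many copies, so their counts are uncertain too.

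Most Cajal body RNAs rose, and among them SCARNA2 and SCARNA9 moved least in the human lines. SCARNA2, a guide for U2 snRNA and the most abundant of them in HepG2, measured 115, 178 and 160.4 normalized CPM in the nonirradiated and 359, 328 and 316 in the UV-irradiated samples (log2 fold change 1.15 ± 0.15 (SE), adjusted p = 0.000104). In HEK293 it stood at 0.48 (adjusted p = 0.113, but 8.58e-08 with the replicate block), and mouse Scarna2 rose by 0.72 in Neuro2a and 0.38 in HippCulture. With library totals alone SCARNA2 was lower with irradiation in all 4 cell types (-0.16, -0.27, -0.48 and -0.18). SCARNA10, which guides modification of U5 snRNA, measured 67.7, 101 and 101 without and 519, 533 and 513 with irradiation in HepG2 (normalized CPM, log2 fold change 2.54 ± 0.15 (SE), adjusted p = 8.54e-07). SCARNA6, SCARNA12 and SCARNA13 rose by 2.28, 2.72 and 2.74 in HepG2 and by 2.00, 2.07 and 2.05 in HEK293. SCARNA5, SCARNA7 and SCARNA17 rose in both human lines, by 1.84, 1.61 and 1.89 in HepG2 and 1.98, 1.06 and 1.64 in HEK293, and SCARNA16, the most positive HEK293 member, rose by 2.71. With library totals alone SCARNA7 lost its call in HepG2 (0.30, adjusted p = 0.16) and HEK293 (0.30, adjusted p = 0.281), and mouse Scarna9, described below, in HippCulture (0.71, adjusted p = 0.123). Mouse Scarna6, Scarna10 and Scarna13 rose by 2.64, 2.54 and 2.76 in Neuro2a and by 1.67, 1.60 and 1.95 in HippCulture. SCARNA9 was the member that did not follow: it stood at -0.13 in HepG2 (adjusted p = 0.462) and 0.34 in HEK293 (adjusted p = 0.205, 0.00304 with the replicate block). Mouse Scarna9, annotated with 70 bases where the human entry has 353, fell by 1.17 in Neuro2a (adjusted p = 0.014) and rose by 1.25 in HippCulture (adjusted p = 0.00724). Both calls rested on single libraries, and were lost in Neuro2a without UV-irradiated replicate 2 (adjusted p = 0.0698) and in HippCulture without UV-irradiated replicate 1 (adjusted p = 0.0587). In HEK293 SCARNA15 had 35 counts over the nonirradiated and 2 over the UV-irradiated samples, a normalized ratio of 0.0878 (95% counting interval 0.0102 to 0.342), the single Cajal body RNA that decreased there.

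**Figure D2:**
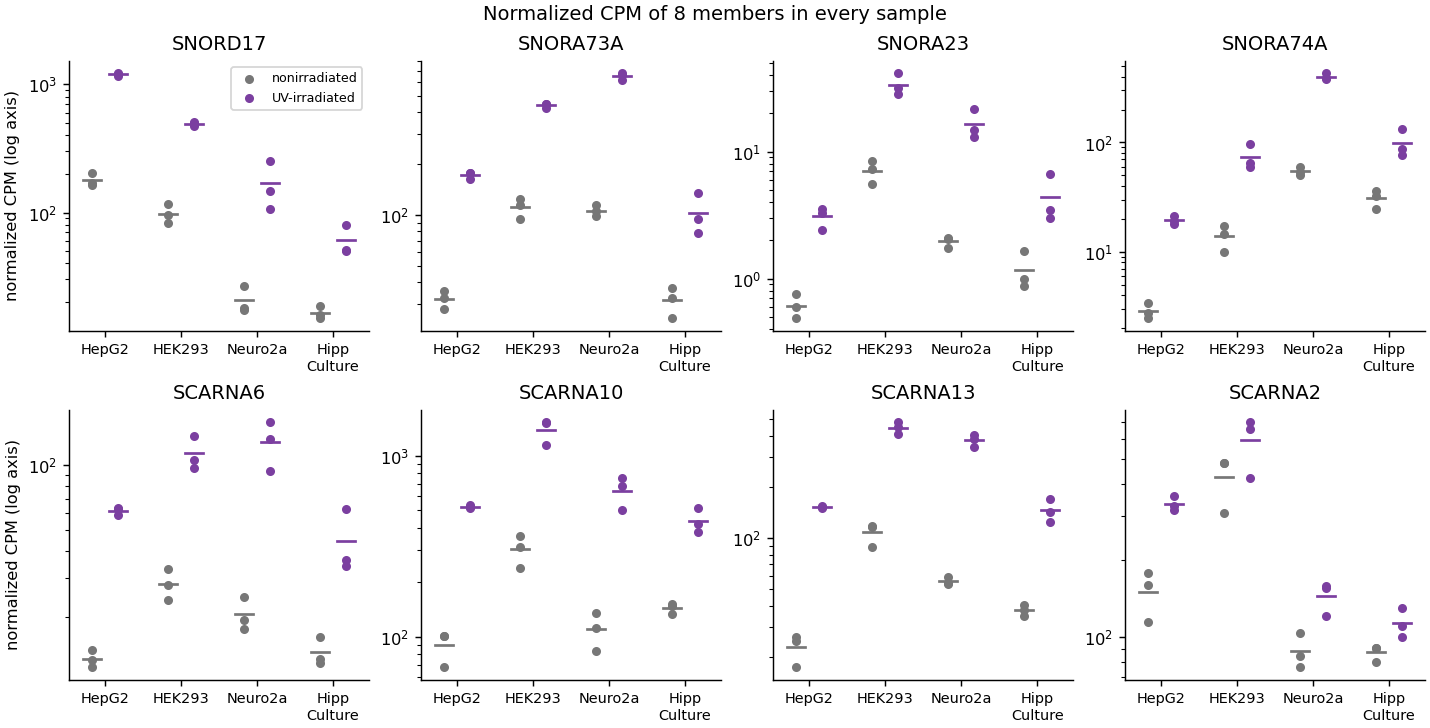
Normalized CPM (log axis, TMM scaling) of 8 snoRNA genes in each sample of the cell type named, with dots for samples and a bar for the mean of 3. The panels show SNORD17, SNORA73A, SNORA23, SNORA74A, SCARNA6, SCARNA10, SCARNA13 and SCARNA2 with their mouse namesakes. SNORD17 rose from 163–204 to 1157–1220.3 in HepG2, and SCARNA2 moved least, with a sign that turned with library totals alone.

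Members of 200 bases or more had higher median fold changes than members under 100 bases in each cell type, and length follows class closely. Members under 100 bases, nearly all C/D snoRNAs, had a median log2 fold change of -0.09, 0.00, 0.31 and -0.25 in HepG2, HEK293, Neuro2a and HippCulture. Members of 100 to 149 bases had 1.19, 1.11, 1.45 and 0.50, the few of 150 to 199 bases 1.42, 0.26, 2.87 and 1.67 (n = 6, 8, 3 and 3), and members of 200 bases or more 2.15, 1.99, 2.62 and 1.67. The order was broken in HEK293, where the median of 150 to 199 bases lay below that of 100 to 149 bases, and in Neuro2a, where it lay above that of 200 bases or more. C/D snoRNAs of 100 to 149 bases had medians of 1.44, 1.18, 2.14 and 1.20 against -0.09, 0.00, 0.31 and -0.27 for C/D snoRNAs under 100 bases, with 12, 12, 6 and 4 and 82, 81, 57 and 26 members. In the range of 100 to 149 bases in HepG2, C/D (1.44, 8 of 12 increased) and H/ACA snoRNAs (0.98, 31 of 56 increased) both had medians above that of the C/D members under 100 bases. H/ACA snoRNAs of 150 to 199 bases had a lower median than those of 100 to 149 bases in HepG2 (0.52 against 0.98) and HEK293 (0.05 against 1.06). The longest members also had a higher level, with a median of 1.04 CPM without irradiation for HepG2 members under 100 bases and 28.1 CPM for those of 200 bases or more. Members are not replicates and share libraries and depth, so these values are descriptions. By level, HepG2 C/D members of 0.5 to 2 CPM had a median of -0.07 and those of 2 to 10 CPM 0.63, and HepG2 H/ACA members 0.52 and 1.79.

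**Figure D3:**
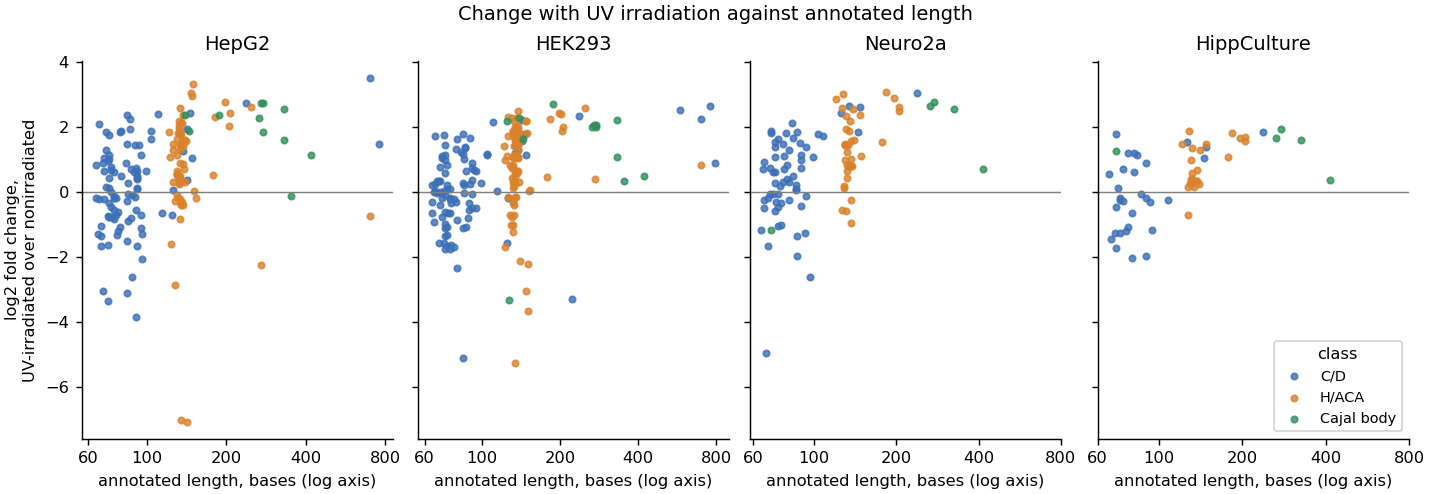
Log2 fold change of each included member against its annotated length in bases (log axis), by cell type and class. Members under 100 bases scatter around a median of -0.09 in HepG2 and those of 200 bases or more around 2.15.

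Each snoRNA was set beside its host, the gene on the same strand whose span holds it. The ratio of snoRNA to host reads within a sample (log2, 0.5 added to each count) does not depend on how libraries are scaled. It was called higher or lower where all 3 irradiated samples lay above or below all 3 nonirradiated ones, the smallest p being 0.1 for 1 pair. In HepG2 42 of 168 ratios were higher and 91 lower with irradiation. Among other genes nested in a host in the same way, 12.4% were higher and 67.2% lower. In HEK293 43 of 187 were higher and 61 lower (97 were lower in all 3 same-numbered pairs, the replicate number taken as a block), against a background where 11.2% were higher and 42.8% lower. In Neuro2a 15 of 97 were higher and 37 lower, where of other nested genes 13.5% were higher and 45.2% lower, and in HippCulture 8 of 52 were higher and 12 lower, where of other nested genes 7.56% were higher and 35.8% lower. The lower count of HippCulture became 19 without HippCulture UV-irradiated replicate 2. Over all members the share of higher ratios was larger and that of lower ratios smaller than among other nested genes in each cell type, as counts with no test, but the C/D snoRNAs did not show this. C/D ratios were higher in 12.9%, 5.49%, 4.92% and 6.67% and lower in 68.8%, 52.7%, 45.9% and 40% of pairs in the 4 cell types in order. These shares lay near those of other nested genes in HepG2 and HippCulture. In Neuro2a fewer C/D ratios were higher (4.92% against 13.5%) and the share lower was near that of other nested genes. In HEK293 fewer were higher (5.49% against 11.2%) and more lower (52.7% against 42.8%). H/ACA ratios were higher in 32.8%, 32.5%, 28.1% and 11.1% and lower in 42.2%, 14.5%, 28.1% and 0%. Of the C/D ratios in HepG2 12 of 93 were higher and 64 lower, of the H/ACA ratios 21 of 64 were higher and 27 lower and of the Cajal body ratios 9 of 11 were higher and 0 lower, and in HEK293 the same counts were 5 and 48 of 91, 27 and 12 of 83, and 11 and 1 of 13. The median change in the ratio over C/D pairs was -1.09, -1.03, -0.72 and -0.82 log2 units, over H/ACA pairs -0.18, 0.23, -0.24 and -0.25 and over Cajal body pairs 2.21, 1.74, 1.10 and 1.42 in the 4 cell types in order. Hosts themselves mostly rose relative to the typical gene, with 63 of 81 HepG2 hosts increased and 8 decreased (38.1% and 40.7% of all genes tested). With library totals alone 39 increased and 31 decreased, against 1734 increased and 15830 decreased of all 20117 genes tested. In HepG2 72 of 93 C/D pairs had a host that increased, with a median host log2 fold change of 1.39, while 31 pairs rose together and in 14 the snoRNA fell and the host rose. Many snoRNAs share bases with an annotated host exon, and a read there was counted for both. Without those pairs, 25 of 63 HepG2 ratios were higher and 26 lower, and 30 of 65 and 14 in HEK293. Taking any other gene and not the host alone, 121 of 174 members in HepG2 and 136 of 202 in HEK293 shared exon bases. In Neuro2a 67 of 106 and in HippCulture 43 of 59 did, so the class counts above also hold reads counted for another gene.

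Members that were denser than their host, that is with more reads per base of exon (RPKM) without irradiation, gained on it more often over all lengths. In HepG2 51 of 168 paired members were denser than the host, and 28 of these had a higher and 8 a lower ratio with irradiation. Of the 117 that were less dense, 14 were higher and 83 lower. In HEK293 the counts were 28 higher and 6 lower of 56 denser members, and 15 and 55 of 131 less dense ones. The ratio change and the density share the nonirradiated counts, so this too is a description. Under 100 bases the difference in higher ratios was seen in HepG2 (7 of 20 denser and 0 of 61 less dense members) but not in HEK293 (0 of 10 and 1 of 68) or Neuro2a (0 of 7 and 1 of 50). SNORA23 gave one of the 2 largest gains over the host in each cell type. Its log2 ratio to IPO7, an importin for ribosomal proteins, was -7.97, -7.41 and -8.03 without and -4.81, -4.69 and -5.15 with irradiation in HepG2, with no overlap. SNORA23 rose while IPO7 fell by 0.60 in HepG2 and 0.94 in HEK293, and mouse Ipo7 fell by 0.78 in Neuro2a and 0.49 in HippCulture on the log2 scale. SNORA74A did the same beside MATR3, an RNA-binding protein of the nuclear matrix, which stood at -0.45 in HepG2 and -0.69 in HEK293. SNORD17 gained on SNX5, a sorting nexin, whose own change was 1.00 in HepG2, 0.22 in HEK293 (adjusted p = 0.228, 0.0153 with the replicate block), 1.02 in Neuro2a and 0.46 in HippCulture, and which was negative in all 4 with library totals alone. SCARNA6 and SCARNA5 gained on ATG16L1, an autophagy protein that stood at 0.07 in HepG2 and -0.30 in HEK293 (adjusted p = 0.204, 0.00975 with the block), and Scarna6 had one of the largest gains of Neuro2a, over Atg16l1. SNORA73A and SNORA73B rose beside SNHG3, a noncoding host that stood at 1.16 in HepG2 (-0.15 with library totals alone) and 1.63 in HEK293, with mouse Snhg3 at 2.55 in Neuro2a and 1.64 in HippCulture. The largest losses against a host were of C/D snoRNAs but for SNORA16B. SNORD19 lost on GNL3, which encodes a nucleolar GTP-binding protein and rose by 0.83 in HepG2 (but not with library totals alone), with log2 ratios of -6.86, -7.45 and -7.71 without and -10.86, -12.85 and -10.22 with irradiation. SNORA16B lost on PPP2R5A in HepG2, where its counts with irradiation were 0. In HEK293 SNORD72 lost on RPL37 and SNORD101 on RPS12, SNORD101 itself at -1.66 (adjusted p = 0.105, 0.0171 with the replicate block). In Neuro2a the largest losses were those of Snord73a on Rps3a1 (17 counts over the nonirradiated and 2 over the UV-irradiated samples, normalized ratio 0.294 (95% counting interval 0.033 to 1.24)) and Snord87 on Snhg6 (21 counts over the nonirradiated and 2 over the UV-irradiated samples, ratio 0.238 (95% counting interval 0.0271 to 0.974)). In HippCulture they were those of Snord21 on Rpl5, at -1.18 (adjusted p = 0.124), and Snord34 on Rpl13a, at -0.46 (adjusted p = 0.6), while Scarna9 gained on Cep295.

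**Figure D4:**
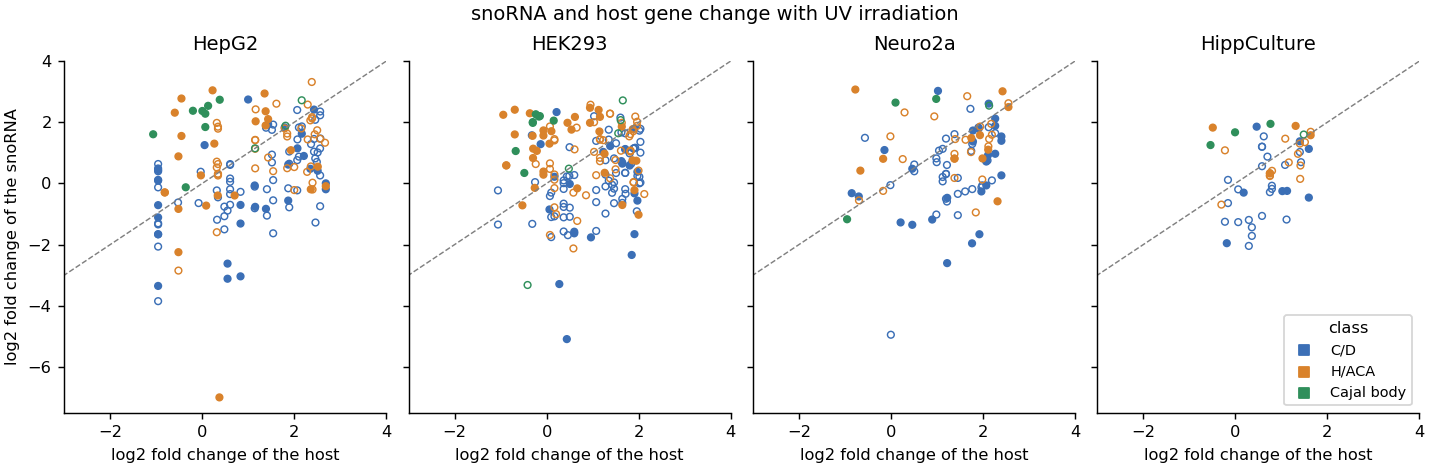
Log2 fold change of each snoRNA (vertical) against that of its host (horizontal) by cell type, with a dashed line of equal change; filled points share no exon base with the host and open points do. In HepG2 most C/D members lie under the line (64 of 93 ratios lower, a share near the 67.2% of other nested genes) and most Cajal body RNAs above it (9 of 11 higher).

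In hosts that carry several snoRNAs, the counts over members of 1 host need not move together. The hosts below, those with at least 3 members in HepG2, were looked at after their values were seen, and their counts stand against 38.1% of all genes tested increased and 40.7% decreased. SNHG14, the long noncoding host of the SNORD116 and neighbouring clusters in the imprinted Prader-Willi region, held 16 members (1 increased, 7 decreased, -3.85 to 0.63), and SNHG14 itself fell by 0.96. Its 16 members are partly near-identical copies of each other, so their counts are uncertain and they are not independent. In NOP58, which encodes a core C/D protein, all 3 members (SNORD11, SNORD70 and SNORD70B) decreased, from -3.12 to -0.89, while the host stood at 0.55. In RABGGTB, a subunit of a Rab-modifying enzyme, SNORD45A, SNORD45B and SNORD45C all decreased, from -1.50 to -0.76. GNL3 held 4 members (0 increased, 2 decreased, -3.04 to -0.28) beside a host at 0.83. NOP58 and GNL3 were both negative with library totals alone (-0.76 and -0.48). The ribosomal protein gene RPL13A, which rose by 2.56, held 4 members (2 increased, 0 decreased, -0.75 to 2.35), and RPS12, which rose by 2.69, held 3 members (0 increased, 0 decreased, -0.19 to 0.00). Among noncoding hosts, SNHG29 held 3 members (3 increased, 0 decreased, 0.69 to 1.75), SNHG12 5 members (3 increased, 0 decreased, -0.77 to 1.42), SNHG1 7 members (2 increased, 1 decreased, -0.70 to 0.63) and SNHG17 4 members (1 increased, 3 decreased, -2.85 to 0.88). Of the SNHG12 members that increased, 2 were entries of the same name, SNORA16A. TAF1D, a factor of RNA polymerase I transcription, held 7 members (2 increased, 0 decreased, -0.46 to 1.85), and NOP56 5 members (1 increased, 1 decreased, -1.63 to 1.92). EIF4A2 held 5 members (2 increased, 1 decreased). With 3 members each, HSPA8 had 0 increased and 0 decreased, RPL4 1 and 0, ZFAS1 1 and 1, SNHG7 2 and 0 and ENSG00000264772 3 and 0. The 2 of SNHG7 were entries of 1 name, SNORA17B. Entries of the same name were counted as separate members here and in the class counts, and they are not independent. In HEK293 SNHG17 had 2 of 4 members increased and 0 decreased, while RABGGTB had 0 increased and 2 decreased and GNL3 0 and 1, of 3 each. Of all genes tested there, 24.2% increased and 26.4% decreased.

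**Figure D5:**
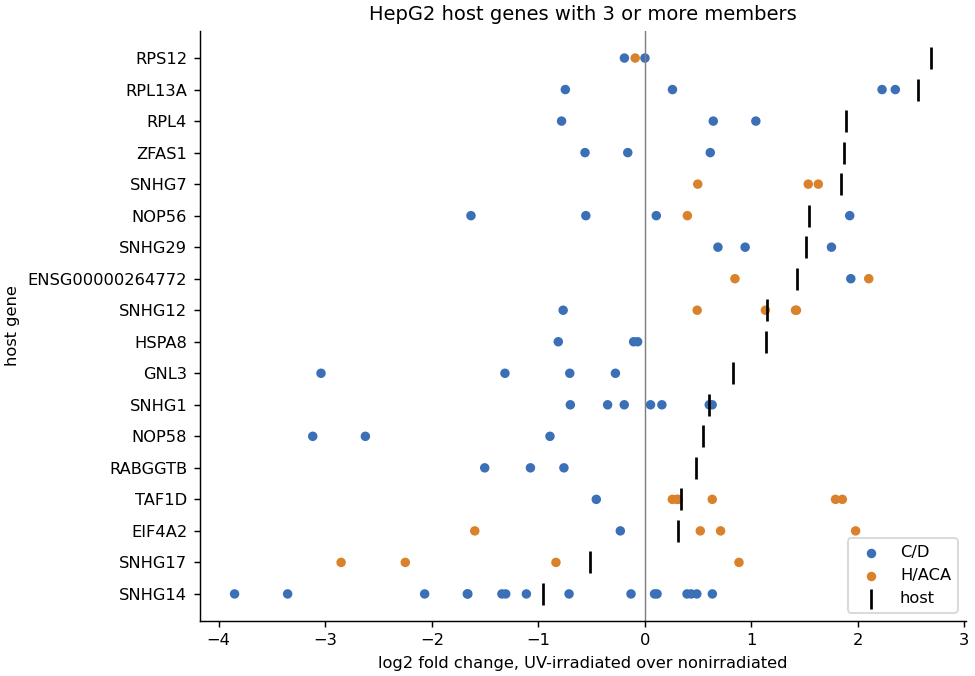
Log2 fold changes in HepG2 of the snoRNAs of each host with at least 3 included members, with a black tick for the host itself. Members of NOP58 and RABGGTB lie below their host, and those of SNHG14 spread from -3.85 to 0.63.

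The response of the members was compared between the 2 human lines and between the 2 mouse cell types by testing the difference of the UV effects in 1 model. Of 151 members tested in both human lines, 5 differed between HepG2 and HEK293 (15 with the replicate block and 19 with library totals alone), against 7.95% of all genes. SNORA57 rose more in HepG2, with a difference of 1.38 ± 0.31 (SE, adjusted p = 0.0149), with differences of 0.77 ± 0.16 (SE, adjusted p = 0.0112) for SNORA12 and 1.16 ± 0.24 (SE, adjusted p = 0.0105) for SNORD3A. SNORD3B-1, a U3 copy, differed the other way, by -1.28 ± 0.28 (SE, adjusted p = 0.0145), as did SNORD49A, by -0.92 ± 0.25 (SE, adjusted p = 0.041), which is named because its values were seen. HepG2 was sequenced on another instrument than the rest, so cell type and sequencer cannot be told apart in this comparison. Of 58 members tested in both mouse cell types, 17 differed (7 with library totals alone), against 24.5% of all genes. In 16 of the 17 the value was more positive in Neuro2a. Of all 14973 genes tested in both, 1256 had a more positive and 2411 a more negative value in Neuro2a. The median difference over the members was 0.85 and over all genes -0.14. Snord47 stood at 1.46 in Neuro2a and -1.06 in HippCulture, a difference of 2.52 ± 0.46 (SE, adjusted p = 0.000691), and the difference was 1.16 ± 0.35 (SE, adjusted p = 0.0182) for Snord17 and 0.93 ± 0.21 (SE, adjusted p = 0.0035) for Snora73a. Scarna9 was the member with the opposite sign, -2.43 ± 0.52 (SE, adjusted p = 0.00216). Of the 37 genes of the same name included in all 4 cell types, 14 increased in each. These were 4 of 17 C/D snoRNAs (SNORD15A, SNORD15B, SNORD17 and SNORD104), 7 of 15 H/ACA snoRNAs (SNORA7A, SNORA23, SNORA57, SNORA68, SNORA73A, SNORA73B and SNORA74A) and 3 of 5 Cajal body RNAs (SCARNA6, SCARNA10 and SCARNA13). In 5 of the 37, 4 of them C/D snoRNAs, a decrease was called in at least 1 cell type. The matching shares over all genes of the same name were not counted. These counts are therefore not set against a background and do not show a trait of snoRNAs. The number of members that differed between the human lines became 9 without HEK293 nonirradiated replicate 1, 3 without HEK293 nonirradiated replicate 2 and 9 without HEK293 UV-irradiated replicate 1, and that between the mouse cell types 10 without HippCulture nonirradiated replicate 3 and 10 without HippCulture UV-irradiated replicate 1.

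The messenger RNAs of the core snoRNA proteins mostly rose relative to the typical gene, less so with library totals alone. Of all genes tested 38.1%, 24.2%, 28.9% and 26.1% increased and 40.7%, 26.4%, 33.0% and 25.9% decreased in HepG2, HEK293, Neuro2a and HippCulture. Of the core C/D proteins (FBL, the methyltransferase, with NOP56, NOP58 and SNU13), 4 of 4 in HepG2, 3 of 4 in HEK293, 4 of 4 in Neuro2a and 2 of 4 in HippCulture increased and 0 decreased. Of the core H/ACA proteins (DKC1, the pseudouridine synthase, with NHP2, NOP10 and GAR1), 3 of 4 in HepG2, 2 of 4 in HEK293, 2 of 4 in Neuro2a and 2 of 4 in HippCulture increased, and 1 decreased, in Neuro2a. With library totals alone the C/D core counts were 3, 1, 0 and 0 increased and 1, 0, 2 and 2 decreased, and the H/ACA core counts 2, 2, 1 and 2 and 2, 1, 2 and 0. At that scaling 1734, 1557, 1058 and 1320 of the 20117, 20472, 17425 and 18488 genes tested increased. In the same order 15830, 11168, 12852 and 9149 decreased. In HepG2 FBL measured 40.5, 35.4 and 35.3 normalized CPM without and 119, 127 and 121 with irradiation (log2 fold change 1.73 ± 0.08 (SE), adjusted p = 3.04e-07). NOP56, NHP2 and NOP10 rose by 1.54, 2.10 and 1.85. Of the 15 assembly and Cajal body factors, 9, 5, 12 and 11 increased and 1, 1, 2 and 1 decreased in HepG2, HEK293, Neuro2a and HippCulture, against 2, 2, 2 and 1 and 13, 10, 8 and 2 with library totals alone.

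Some members lay near the limit of 0.5 CPM or had close copies. In HepG2 SNORA16B (0.503 CPM) and SNORA75 (0.511 CPM) lay just inside the limit and SNORA77B (0.494 CPM) and SNORD58A (0.487 CPM) just outside. In HEK293 SNORA29 (0.523 CPM) and SNORD89 (0.525 CPM) lay inside and SNORD62B (0.491 CPM) and SNORA2B (0.491 CPM) outside, in Neuro2a Snord50a (0.509 CPM) and Snora19 (0.517 CPM) inside and Scarna17 (0.495 CPM) and Snord82 (0.492 CPM) outside, and in HippCulture Snord99 (0.522 CPM) and Snord100 (0.522 CPM) inside and Snora33 (0.491 CPM) and Snord55 (0.482 CPM) outside. Of the members, 42, 90, 62 and 44 had fewer than 10 reads in at least 1 sample in HepG2, HEK293, Neuro2a and HippCulture, and 20, 17, 12 and 9 had another annotated copy at 95% identity or more. The limit used only nonirradiated samples, and 5, 10, 4 and 8 annotated genes in the same order were under it without irradiation and reached it with irradiation, and were not counted as members.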

How the data were processed

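UV-irradiated and nonirradiated HepG2, HEK293, Neuro2a and HippCulture were each measured in 3 samples by sequencing aqueous-phase RNA after TRIzol extraction and ribosomal RNA depletion. The libraries were made with a TruSeq kit, which the labels call stranded and the study's methods do not. The authors aligned reads with TopHat2 2.1.1 and, per the file headers, counted them on exons with featureCounts 1.5.3 or 1.6.1 and GENCODE 28 (human) or M17 (mouse). Reads over several genes were counted for each, with no strand option and no option for multiply mapped reads. Reads marked as multiply mapped are left out under that setting. With no strand option antisense genes cannot be told apart, and the counts of near-identical genes are uncertain. The deposited values are raw counts per gene. Names and hosts came from GENCODE 44 and M21, which named 99.0% of 58381 human and 99.82% of 53715 mouse identifiers.

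The quasi-likelihood test of edgeR 4.0.16, run in R 4.3.3 after TMM scaling, was applied to the counts, for each cell type on its own samples and, for differences of the UV effect, in 1 model of both human or both mouse cell types. Genes with a mean of at least 0.5 CPM in nonirradiated samples were tested, and a Benjamini-Hochberg adjusted p under 0.05 over all of them was called. Log2 fold changes set irradiated over nonirradiated samples. A host was the protein coding or long noncoding gene on the same strand whose span holds the snoRNA, the most abundant of several, and ratios added 0.5 to each count. Sums and ratios were compared by exact permutation (scipy 1.17.1).

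Members, lists and tests were chosen with earlier results of these data known. Named were a fixed list of processing and Cajal body snoRNAs, the 3 most abundant members of each class, the 2 most positive and the 2 most negative called members without overlap, hosts, the 2 largest gains and losses against a host, and a fixed list of snoRNA proteins. Genes named outside this rule were chosen after their values were seen. Same-numbered samples deviated together in HEK293 (r = 0.654, 0.368 and 0.461) and Neuro2a (0.291, 0.104 and 0.146), from the data and not the labels, so values with the replicate number as a block stand beside results they change. Alternatives were DESeq2 1.42.0, its size factors, library sizes alone, other count limits, members or pairs without shared exon bases, a pseudocount of 5 and each library left out. The lowest chi-square per degree of freedom between replicates was 3.07, so no library was counted as a repeat. On simulated counts with the depths of HepG2, 96% of genes changed 4-fold and 47% of those changed 2-fold were called. For differences of the UV effect, 91% of 4-fold and 8% of 2-fold changes were called between the human lines. Between the mouse cell types 87% and 14% were called. In HepG2 100 of 20117 genes were changed by each fold, up and down alike, with 1 spread for all genes. In every simulation the changed genes were drawn from those with an average of at least 10 counts per sample. The shares called therefore do not cover members with fewer reads. The simulation therefore does not bear on the scaling between libraries.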

Additional observations from a re-analysis of the deposited data

Results flagged for a closer look

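Among the named members, the UV effect differed between cell types by the test of the difference itself (edgeR's quasi-likelihood test, adjusted p under 0.05) for 4 between HepG2 and HEK293 and for 12 between Neuro2a and HippCulture. HepG2 minus HEK293, the differences in log2 fold change were 1.38 for SNORA57, 0.77 for SNORA12, 1.16 for SNORD3A and -1.28 for SNORD3B-1. These 4 rose in both lines, so they differed in size and not in direction. SNORD3A and SNORD3B-1 are near copies of each other, so the count of each is uncertain, and the part of reads that fit both was not tested. Neuro2a minus HippCulture, they were 2.52 for Snord47, 2.34 for Snord34, 1.16 for Snord17 and 0.90 for Snord22 among the C/D snoRNAs. For the H/ACA snoRNAs they were 1.20 for Snora74a, 1.13 for Snora78, 0.93 for Snora73a and 0.91 for Snora73b, and for the Cajal body RNAs 0.96 for Scarna6, 0.94 for Scarna10, 0.81 for Scarna13 and -2.43 for Scarna9. Scarna9 was the member of these 12 called in opposite directions in the 2 mouse cell types.

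Annotated snoRNA genes below the limit of 0.5 CPM without irradiation that reached it with irradiation, and so stood outside the comparisons, numbered 5, 10, 4 and 8 in HepG2, HEK293, Neuro2a and HippCulture. In HepG2 all 5 were H/ACA snoRNAs, among them SNORA49 (0.246 CPM without and 0.843 CPM with irradiation). In HEK293 they held SCARNA1 (0.488 CPM without and 1.24 CPM with irradiation) and both entries of SNORD3D, each at 0.209 CPM without and 1.35 CPM with irradiation. In HippCulture Snord118, the U8 snoRNA, had 0.442 CPM without and 2.24 CPM with irradiation. These genes were chosen after their values were seen, and being low without irradiation was part of the choice.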

How the results depend on the processing

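The counts of C/D and H/ACA snoRNAs that increased and of higher snoRNA to host ratios moved by less than 1.5 times with DESeq2 size factors, the DESeq2 test and the replicate block, with 1 library left out (but for the C/D count of HippCulture) and, for the ratios, with a pseudocount of 5 reads. Counts of members that decreased are small and moved more. Only values that moved by more than 1.5 times follow, and where nothing else is said the cause was not tested.

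With the DESeq2 test there were 3 H/ACA decreased in HEK293, 1 C/D decreased in Neuro2a, 2 C/D decreased in HippCulture, and 8 members that differed between HepG2 and HEK293. Testing every gene with at least 1 count, which adds members under the 0.5 CPM limit, gave 44 C/D decreased, 22 H/ACA decreased and 1 Cajal body RNAs decreased in HepG2, 8 C/D increased and 1 H/ACA decreased in HippCulture, and 8 members that differed between HepG2 and HEK293. A minimum of 10 counts in every sample, which drops members that fall to few reads, gave 8 C/D decreased and 1 H/ACA decreased in HepG2, 0 C/D decreased, 0 H/ACA decreased, 0 Cajal body RNAs decreased and 24 ratios lower in HEK293, 0 C/D decreased, 0 Cajal body RNAs decreased and 6 ratios lower in Neuro2a, 3 C/D increased, 0 C/D decreased, 7 H/ACA increased and 0 ratios lower in HippCulture, and 10 members that differed between Neuro2a and HippCulture. With the 0.5 CPM limit on the mean of all samples there were 3 H/ACA decreased in HepG2, 1 H/ACA decreased in HEK293, and 1 C/D decreased in Neuro2a. With library sizes alone, which removes the correction that sets the typical gene to about no change, there were 14 C/D increased, 64 C/D decreased, 21 H/ACA increased, 29 H/ACA decreased and 1 Cajal body RNAs decreased in HepG2, 13 C/D increased, 33 C/D decreased and 13 H/ACA decreased in HEK293, 10 C/D increased, 24 C/D decreased, 12 H/ACA increased, 5 H/ACA decreased and 2 Cajal body RNAs decreased in Neuro2a, 3 C/D increased, 9 C/D decreased, 6 H/ACA increased and 3 Cajal body RNAs increased in HippCulture, 19 members that differed between HepG2 and HEK293, and 7 members that differed between Neuro2a and HippCulture. Restricting to members that share no exon base with another gene leaves fewer to test by construction, with 9 C/D increased, 6 C/D decreased, 11 H/ACA increased and 4 Cajal body RNAs increased in HepG2, 9 C/D increased, 4 C/D decreased, 18 H/ACA increased, 2 H/ACA decreased, 5 Cajal body RNAs increased and 0 Cajal body RNAs decreased in HEK293, 13 C/D increased, 5 H/ACA increased and 2 Cajal body RNAs increased in Neuro2a, 3 C/D increased, 1 C/D decreased, 3 H/ACA increased and 3 Cajal body RNAs increased in HippCulture, 3 members that differed between HepG2 and HEK293, and 7 members that differed between Neuro2a and HippCulture. For pairs that share no exon base there were 25 ratios higher and 26 ratios lower in HepG2, 14 ratios lower in HEK293, 6 ratios higher and 16 ratios lower in Neuro2a, and 5 ratios higher and 4 ratios lower in HippCulture. Choosing each host among genes sharing no exon base with the snoRNA, an alternative chosen after seeing the data, gave 26 ratios higher and 31 ratios lower in HepG2, 20 ratios lower in HEK293, 7 ratios higher and 16 ratios lower in Neuro2a, and 4 ratios lower in HippCulture.

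With the replicate number as a block there were 17 C/D decreased and 97 ratios lower in HEK293, 19 ratios lower in HippCulture, and 15 members that differed between HepG2 and HEK293, and the block changed no other of these counts by over 1.5 times. In HepG2 and HippCulture same-numbered samples share only a number, since the lowest correlation of their deviations from the group means was -0.0245 and 0.0567. Of the single values, 5 gained and 1 lost a call with the block, and 109 kept direction and side of the threshold.

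With 1 library left out, the ranges were 1 to 11 C/D and 3 to 4 H/ACA snoRNAs decreased in HEK293, 1 to 3 C/D and 0 to 1 Cajal body RNAs decreased in Neuro2a, 5 to 8 C/D increased, 1 to 4 C/D decreased and 12 to 19 ratios lower in HippCulture, 3 to 9 members that differed between the human lines and 10 to 20 between the mouse cell types.

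Of the single values, 84 kept direction and call with library sizes alone, 8 lost and 8 gained a call and 15 changed sign. These were SCARNA2 (-0.16, -0.27, -0.48 and -0.18 in HepG2, HEK293, Neuro2a and HippCulture) and SNX5 (-0.31, -0.54, -0.18 and -0.088 in the same order), SNORD22 (ENSG00000277194.1, -1.25), NOP58 (-0.76), GNL3 (-0.48), SNHG3 (-0.15) and ATG16L1 (-1.24) in HepG2, SCARNA9 in HEK293 (-0.41) and Atg16l1 in Neuro2a (-1.09). Values near 0 also changed sign elsewhere, called in none of these but ATG16L1 with the minimum of 10 counts (adjusted p = 0.0259). SNORD22 (ENSG00000277194.1) in HepG2 stood at -0.0134 with DESeq2 size factors, -0.0133 with the DESeq2 test, -0.22 with the minimum of 10 counts, -0.0348 with the limit on all samples and -0.0749 to 0.15 with 1 library left out. ATG16L1 in HepG2 stood at -0.00266, -0.00305, -0.21 and -0.0219 under the same settings and -0.0567 to 0.0977 with 1 library left out, and Atg16l1 in Neuro2a at -0.038 with at least 10 counts. In HippCulture leaving out 1 library gave -1.12 to 0.15 for Snord34 and -0.0099 to 0.0487 for Atg16l1.

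Most members that decreased had fewer than 10 reads in at least 1 sample, a measure that a decrease itself lowers, and the HEK293, Neuro2a and HippCulture libraries were shallower than those of HepG2. Reads of snoRNAs inside an annotated host exon were counted for both genes.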
